A study of Homo sapiens with 9 samples.

Results

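The RAB genes encode small GTPases, and their transcripts were followed through RNA immunoprecipitation (RIP) with the nuclear poly(A) binding protein PABPN and the cytoplasmic poly(A) binding protein PABPC. Members were all protein coding genes whose symbol is RAB followed by digits and an optional letter, which leaves out regulators such as RABGAP1. This gave 63 genes of the 18872 protein coding genes, and of the 51105 genes of any kind, that both tables list. Wildtype HEK293T cells, an established human embryonic kidney line, were crosslinked with 0.1% formaldehyde for 10 min in every group. Each of 3 lysates was sonicated and divided, giving 3 input libraries of total lysate RNA with no immunoprecipitation, 3 PABPN RIPs and 3 PABPC RIPs. Ribodepleted total RNA was sequenced as single-end reads of 75 nt, at an estimated 36.49 to 52.23 M gene-assigned reads per library. Both RIPs were compared with the same input libraries. The whole lysate was used, so a RIP fold change is relative to RNA of nucleus and cytoplasm together. Reads in introns and exons were counted together, so spliced and unspliced RNA of a gene cannot be told apart. Of the markers looked up for the line, NEFM, NEFL and VIM were abundant in input at 18276, 4917 and 3025 normalised reads per kb of exonic length, while GATA3, WT1, PAX2 and CDH1 were at 138, 66.9, 46.1 and 19.9.

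RAB proteins mark the membranes of the cell. Each cycles between a GTP-bound form on a particular organelle, where it recruits effectors such as motors and tethers, and a GDP-bound form that is kept soluble by GDP dissociation inhibitors. Exchange factors switch them on and GTPase activating proteins switch them off, and a lipid anchor added at the C-terminus with the help of escort proteins holds them to the membrane. Most RAB genes are expressed in many tissues, and close relatives that share a number often act at the same organelle.

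Poly(A) binding proteins coat the tail that is added downstream of the poly(A) signal, usually AATAAA or ATTAAA. The 30-base windows around that signal are shown for the members at the ends of the PABPC range, 2 of the most enriched and the 3 most depleted, and for 1 enriched in both RIPs. They come from the 3′ UTR (the last exon) of the canonical GENCODE 44 transcript, on the hg38 build, in the sense direction, with the signal in capitals.

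RAB1B (chr11:66277433-66277462, plus strand): acaaaaaaaattAATAAAtttccattggcc
RAB34 (chr17:28714290-28714319, minus strand): tgtgccttatgcATTAAAatttctttgtta
RAB29 (chr1:205767992-205768021, minus strand): tgcaaaatcacaAATAAAtgagaactaagt
RAB30 (chr11:82973139-82973168, minus strand): tacttgtatataAATAAAcatttcctgttg
RAB28 (chr4:13367725-13367754, minus strand): ttttctttcacaAATAAActtatttaaatt
RAB3C (chr5:58859353-58859382, plus strand): cttgaagattacAATAAAtatctaagagac

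Within the last 50 transcript bases, 36 of the 63 RAB transcripts (57.1%) held AATAAA, 11 (17.5%) held ATTAAA without AATAAA, and 16 (25.4%) held neither. Over all protein coding transcripts of the annotation the shares were 63.4%, 13.9% and 22.6%. Both the most enriched and the most depleted windows above hold a signal. The median PABPC fold change was 0.52 on the log2 scale over the 29 tested RAB genes with AATAAA, 0.36 over the 7 with ATTAAA and 0.85 over the 15 with neither, a description of genes rather than of sites that were shown to be used.

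Levels are group means of normalised reads on the size-factor scale of the PABPN table, solved from the deposited mean and fold change. No level could be set beside its replicates because values per library were not analysed here, and the error of each fold change is its deposited standard error (SE). A mean of more than 50 normalised reads was reached by 51 RAB genes in both tables. The other 12, RAB6C, RAB6D, RAB7B, RAB17, RAB19, RAB25, RAB26, RAB33A, RAB37, RAB41, RAB42 and RAB44, lay below it, and RAB41 was listed at 0 in the PABPN table. RAB27B was the member just inside, with means of 55.7 and 50.1, and RAB26 the member just outside, with 34.2 and 24.5. The input level of the 51 genes per kb of exonic length ranged 404-fold, from 8.43 for RAB27B to 3407 for RAB7A, around a median of 259. RAB7A, which directs late endosomes to lysosomes, was followed by RAB28 (2396), RAB10 (2333) and RAB14 (1543). Intronic reads enter these levels while intron length does not, and their share in each level was not tested.

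**Figure D1:**
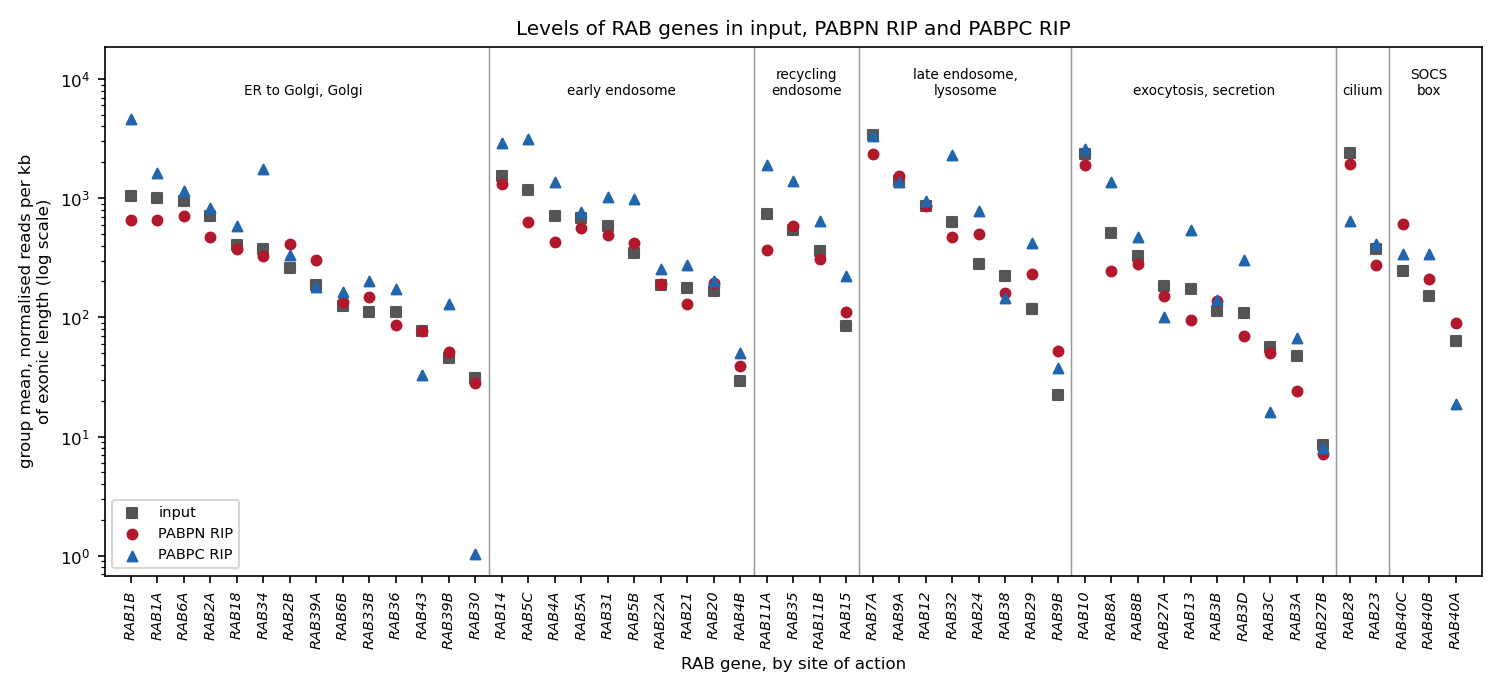
Group means of the 51 tested RAB genes in input (grey squares), PABPN RIP (red circles) and PABPC RIP (blue triangles), in normalised reads per kb of exonic length on a log scale, ordered by site of action and then by input level. No error bars are drawn because values per library were not analysed. RAB30 in the PABPC RIP, at 1.04, is the lowest point.

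PABPC enriched more RAB genes than it depleted. With PABPN more were depleted than enriched, an order that a log2 threshold of 1 turned round (2 enriched, 1 depleted), as did a test that the change itself exceeds 0.5 (3 enriched, 2 depleted). A gene was called enriched or depleted with a log2 fold change beyond 0.5, an adjusted p from the deposited DESeq2 fit of at most 0.01 and a mean above 50. With PABPC, 27 of 51 RAB genes were enriched (52.9%) against 41.2% of protein coding genes and 38.4% of all genes tested. PABPC depletion was called for 7 (13.7%), against 27.9% of protein coding genes and 32.4% of all genes, and 17 had no call. The 7 were RAB30, RAB28, RAB3C, RAB40A, RAB43, RAB27A and RAB38. With PABPN, 6 were enriched (11.8%), against 15.1% of protein coding genes and 17.5% of all genes, and 11 were depleted (21.6%), against 16.5% and 14.6%. The other 34 had no PABPN call. The members' median log2 fold change was 0.53 with PABPC, where the median over protein coding genes was 0.25 and that over all genes 0.14, and -0.21 with PABPN, where those medians were -0.087 and -0.041. Relative to the median of all genes, 24 RAB genes were PABPC-enriched and RAB8B, RAB18 and RAB36 were no longer called. Whether the family stands apart from other genes was not tested.

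The difference between the RIPs, PABPN minus PABPC, was tested for each gene with a two-sided normal test on both fold changes and their SEs, with Benjamini-Hochberg adjustment over 14581 genes. PABPC had the higher fold change for 28 of the 51 RAB genes (54.9%), against 37.8% of protein coding genes and 33.4% of all genes. PABPN had the higher one for 8 (15.7%), RAB30, RAB40A, RAB3C, RAB28, RAB43, RAB40C, RAB39A and RAB27A, against 30.6% and 36.1%. The remaining 15 had no call. The median difference was -0.64 over the members, -0.12 over protein coding genes and 0.068 over all genes, on the log2 scale.

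**Figure D2:**
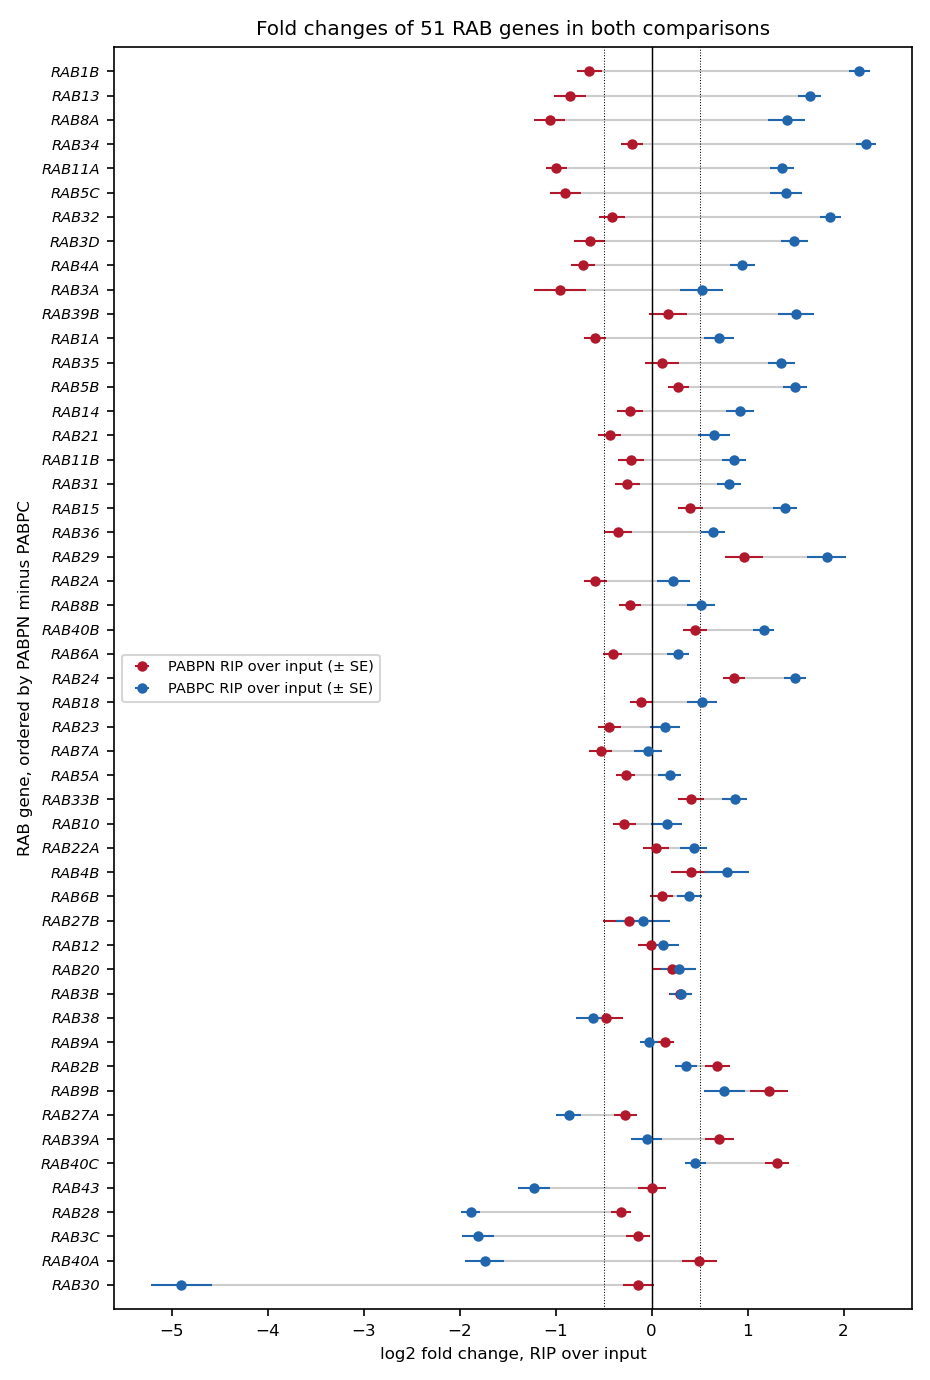
Log2 fold change over input with its SE for the 51 tested RAB genes, PABPN RIP in red and PABPC RIP in blue, ordered by the difference of the fold changes, with dotted lines at the call threshold of 0.5 in either direction. The difference runs from -2.82 for RAB1B at the top to 4.76 for RAB30 at the bottom, with an SD over members of 1.21 for PABPC and 0.55 for PABPN. Both comparisons share the input libraries.

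The RABs of the ER and Golgi held both ends of the PABPC range. Of the 14 tested, 7 were enriched with PABPC and 2 depleted, and 2 were enriched with PABPN and 3 depleted, where 41.2% and 27.9% of protein coding genes were called with PABPC and 15.1% and 16.5% with PABPN. RAB1B, which drives transport from the ER to the Golgi, rose from a mean of 2020 normalised reads in input to 9056 in the PABPC RIP and fell to 1286 in the PABPN RIP. Its log2 fold changes were 2.16 ± 0.11 (SE, 3 against 3 libraries, adjusted p = 6.30e-86) with PABPC and -0.65 ± 0.13 (adjusted p = 3.30e-06) with PABPN. This was the largest difference in favour of PABPC among the members (-2.82 ± 0.17, adjusted p = 1.38e-60). RAB34, a Golgi RAB with a part in cilium formation, had the highest PABPC fold change of the members (2.23 ± 0.10, adjusted p = 6.93e-103), from 1242 reads in input to 5835. With PABPN it was at 1078 reads, -0.20 ± 0.11, and was not called. The other PABPC-enriched genes at this site were RAB39B (1.5 ± 0.19), RAB33B (0.86 ± 0.13), RAB1A (0.70 ± 0.15), RAB36 (0.64 ± 0.13) and RAB18 (0.53 ± 0.15). Of these, RAB1A was depleted from PABPN (-0.59 ± 0.12), as was RAB2A (-0.59 ± 0.12), which had no PABPC call.

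RAB30, another Golgi RAB, stood at the opposite end. Its mean was 367 normalised reads in input, 333 in the PABPN RIP and 12.3 in the PABPC RIP. The PABPC fold change of -4.90 ± 0.32 (adjusted p = 9.02e-52) corresponds to a 29.9-fold lower level, and it ranked number 3 from the bottom of the 12452 protein coding genes tested in both. The PABPN fold change was -0.14 ± 0.16 and not called. The difference of 4.76 ± 0.36 (adjusted p = 5.38e-39) ranked number 3 from the top. RAB43, the other Golgi RAB depleted from PABPC, fell by 1.23 ± 0.17 (adjusted p = 1.32e-12) and was at 0.00 ± 0.14 with PABPN, though 38.1% of the 75-base stretches of its transcript also occur in genes elsewhere in the genome. In the other direction, RAB2B (0.68 ± 0.13) and RAB39A (0.71 ± 0.15) were enriched with PABPN without a PABPC call, and RAB6A and RAB6B had no call in either RIP.

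The early endosome group was enriched with PABPC in 7 of 10 genes, where 41.2% of protein coding genes were enriched, and depleted in none, where 27.9% were. RAB5A, RAB5B and RAB5C govern fusion of early endosomes, and 2 of the 3 were enriched with PABPC. RAB5C went from 3252 normalised reads in input to 8612 with PABPC (1.40 ± 0.17, adjusted p = 1.36e-16) and 1741 with PABPN (-0.90 ± 0.16, adjusted p = 2.48e-07). RAB5B reached 6417 from 2281 with PABPC (1.49 ± 0.13) and had no PABPN call at 0.28 ± 0.11. RAB5A had a call in neither RIP, at 0.19 ± 0.12 with PABPC and -0.27 ± 0.10 with PABPN. The endosomal RABs RAB4A, RAB4B, RAB14, RAB21 and RAB31 were the other PABPC-enriched genes, with fold changes from 0.65 to 0.94, and RAB4A was also depleted from PABPN (-0.71 ± 0.12). RAB14, among the most abundant members, went from 6647 reads in input to 12583 with PABPC (0.92 ± 0.15, adjusted p = 8.67e-10) and 5670 with PABPN (-0.23 ± 0.14, not called). RAB20 and RAB22A had no call in either RIP.

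All 4 tested RABs of the recycling endosome were enriched with PABPC, at 0.85 to 1.39, against a share of 41.2% over protein coding genes. RAB11A, which returns cargo to the plasma membrane, combined this with depletion from PABPN. It was at 4189 normalised reads in input, 10729 with PABPC (1.36 ± 0.13, adjusted p = 2.18e-25) and 2105 with PABPN (-0.99 ± 0.11, adjusted p = 1.69e-18), a difference of -2.35 ± 0.17. RAB11B, RAB15 and RAB35 had no PABPN call.

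RABs of the late endosome, lysosome and related organelles held 3 of the 6 members enriched with PABPN, 3 of 8 tested there against 15.1% of protein coding genes. These were RAB9B, RAB24 and RAB29, and each was enriched with PABPC too. RAB9B, a relative of the late endosome to Golgi transport factor RAB9A, had 84.4 reads in input, 197 with PABPN (1.22 ± 0.19, adjusted p = 3.10e-09) and 143 with PABPC (0.76 ± 0.22, adjusted p = 9.25e-04). RAB29, which recruits the kinase LRRK2 to membranes, went from 461 to 898 with PABPN (0.96 ± 0.20, adjusted p = 6.40e-06) and to 1636 with PABPC (1.82 ± 0.20, adjusted p = 1.18e-18). RAB24, linked to autophagy, went from 575 to 1039 (0.85 ± 0.11, adjusted p = 1.20e-12) and 1618 (1.49 ± 0.11, adjusted p = 5.13e-40).

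Within the same group, RAB32 and RAB38 act in the making of melanosomes and other lysosome-related organelles. RAB32 was enriched with PABPC (1.86 ± 0.11, adjusted p = 1.45e-65), from 675 reads to 2458. RAB38 was depleted (-0.61 ± 0.18, adjusted p = 0.00145), from 320 to 210. RAB7A, the member with the highest input level, was at 9055 in input, 8805 with PABPC (-0.041 ± 0.15, not called) and 6269 with PABPN (-0.53 ± 0.12, adjusted p = 4.63e-05). Its PABPN call was lost once fold changes were centred on the median of all genes. RAB9A and RAB12 had no call in either RIP.

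Of the 10 tested RABs of exocytosis and regulated secretion, 4 were enriched with PABPC and 2 depleted, shares near or below the 41.2% and 27.9% of protein coding genes. With PABPN 4 were depleted, against 16.5%, and none enriched, against 15.1%. RAB8A, which carries vesicles from the Golgi to the plasma membrane and the cilium, had the lowest PABPN fold change of all members (-1.06 ± 0.16, adjusted p = 9.98e-10), from 2518 reads in input to 1205. With PABPC it was at 6680 (1.41 ± 0.19, adjusted p = 4.18e-13). RAB13, of cell junctions, went from 473 reads to 262 with PABPN (-0.85 ± 0.16, adjusted p = 1.28e-06) and to 1480 with PABPC (1.65 ± 0.12, adjusted p = 1.96e-42). RAB10, which moves glucose transporters to the surface of fat cells, was at 8526 reads in input, 7000 with PABPN (-0.28 ± 0.12) and 9513 with PABPC (0.16 ± 0.16), with no call.

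The RAB3 proteins, known for synaptic vesicle release, ran from one side of the range to the other. RAB3D was depleted from PABPN (-0.65 ± 0.16, adjusted p = 3.44e-04) and enriched with PABPC (1.49 ± 0.14, adjusted p = 1.99e-26), at 475, 304 and 1332 reads in input, PABPN RIP and PABPC RIP. RAB3C was at 538, 487 and 154 reads, depleted from PABPC (-1.81 ± 0.17, adjusted p = 9.19e-27) with no PABPN call (-0.14 ± 0.13). RAB3A had 84.0, 43.2 and 120 reads, with PABPN depletion (-0.96 ± 0.27, adjusted p = 0.00149) and no PABPC call (0.52 ± 0.23, adjusted p = 0.0381). RAB3B had a call in neither RIP. RAB27A, which tethers melanosomes and secretory granules, was depleted from PABPC (-0.86 ± 0.13, adjusted p = 7.55e-11), while RAB8B was just past the threshold for PABPC enrichment (0.52 ± 0.15).

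Neither cilium RAB was called with PABPN. RAB28 was at 5321 normalised reads in input, 4273 with PABPN (-0.32 ± 0.11) and 1438 with PABPC (-1.89 ± 0.10, adjusted p = 3.48e-73), the most precise of the PABPC depletions. RAB23, an inhibitor of Hedgehog signalling, was called in neither RIP. The RAB40 proteins carry a SOCS box and act in ubiquitin ligases. RAB40C had the highest PABPN fold change of the members, 1.31 ± 0.12 (adjusted p = 3.07e-24), from 1027 reads to 2546. Its PABPC level was 1410 (0.46 ± 0.11, below the threshold of 0.5). RAB40A went from 254 to 75.9 reads with PABPC (-1.74 ± 0.20, adjusted p = 6.05e-17) and 357 with PABPN (0.49 ± 0.18, adjusted p = 0.0185), a difference of 2.23 ± 0.27. RAB40B was enriched with PABPC (1.17 ± 0.11) with no PABPN call (0.45 ± 0.12).

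Close relatives that share a RAB number were compared in pairs. Among the 12 numbers with at least 2 tested members there were 21 pairs, and the 95% interval of the difference between relatives excluded 0 in 17 pairs with PABPN and in 16 with PABPC. These are 81.0% and 76.2% of the pairs. Among the 1254 pairs of members with different numbers the shares were 61.2% and 73.5%, so an interval that excludes 0 was common between any members, and nothing particular to relatives is read from these counts. The intervals were not adjusted for the number of pairs. The median absolute difference between relatives was 0.78 with PABPN and 0.97 with PABPC, on the log2 scale, and between members of different numbers 0.52 and 0.88. The largest was between RAB3C and RAB3D with PABPC (-3.30, 95% interval -3.72 to -2.87), followed by RAB40A and RAB40B (-2.91, -3.36 to -2.46). RAB1A and RAB1B had a difference of -1.46 with PABPC (-1.84 to -1.09), both being enriched, and 0.06 with PABPN (-0.28 to 0.40). With PABPN the widest gap was between RAB2A and RAB2B (-1.27, -1.62 to -0.92), 1 depleted and 1 enriched. Their PABPC difference was -0.13 (-0.54 to 0.27). RAB27A and RAB27B had a PABPN difference of -0.03, with an interval from -0.60 to 0.54 that leaves room for a sizeable gap either way.

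**Figure D3:**
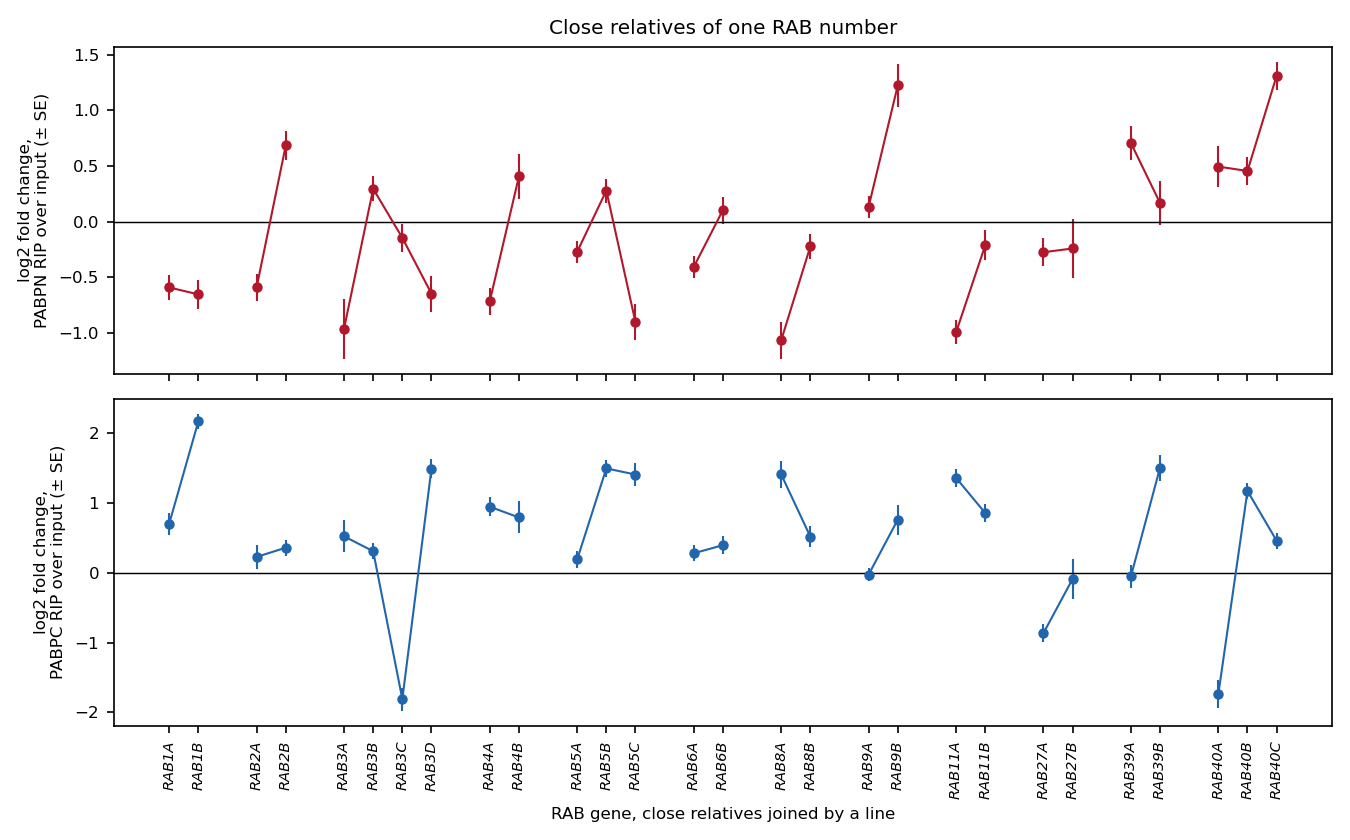
Log2 fold change over input with its SE for RAB genes that share a number, PABPN RIP above and PABPC RIP below, with lines joining relatives. RAB1A and RAB1B are close in the upper panel (-0.59 and -0.65) and apart in the lower one (0.70 and 2.16), and RAB3C and RAB3D span -1.81 to 1.49 in the lower one.

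RAB genes have short coding sequences of similar length, 582 to 1020 bases (median 645) among the 51 tested, against a median of 1449 over protein coding genes. Total intron length varied from 934 to 267459 bases. The PABPC fold change was lower where introns were longer, with a rank correlation of -0.69 over the 51 members (-0.77 over 12443 protein coding genes), given as a description because the genes share libraries and depth. Without RAB30 it was -0.68. In 3 groups of 17 genes each, from the shortest to the longest introns, the median PABPC log2 fold change was 1.49, 0.46 and 0.23, and that with PABPN was -0.20, -0.01 and -0.25. PABPC values in the group with the shortest introns ran from 0.36 to 2.23. The exceptions to the trend included RAB40A, depleted with 18391 intron bases, and RAB31, enriched (0.81 ± 0.12) with 150332.

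Exonic and coding length followed the PABPC fold change less closely within the family than over protein coding genes, and 3′ UTR length did so alike. Coding length ran only from 582 to 1020 bases over the members, against 75 to 107973 over protein coding genes. The effect of this narrower range was not tested. The rank correlation over the members was -0.15 with exonic length, -0.14 with coding length and -0.18 with 3′ UTR length, while over protein coding genes it was -0.48, -0.53 and -0.18. Median PABPC fold changes over 17 genes each with the shortest, middle and longest 3′ UTRs were 0.52, 0.76 and 0.52. With PABPN the rank correlations were 0.10 with exonic length, 0.07 with 3′ UTR length and -0.13 with intron length. The part that unspliced reads play in these values was not tested.

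**Figure D4:**
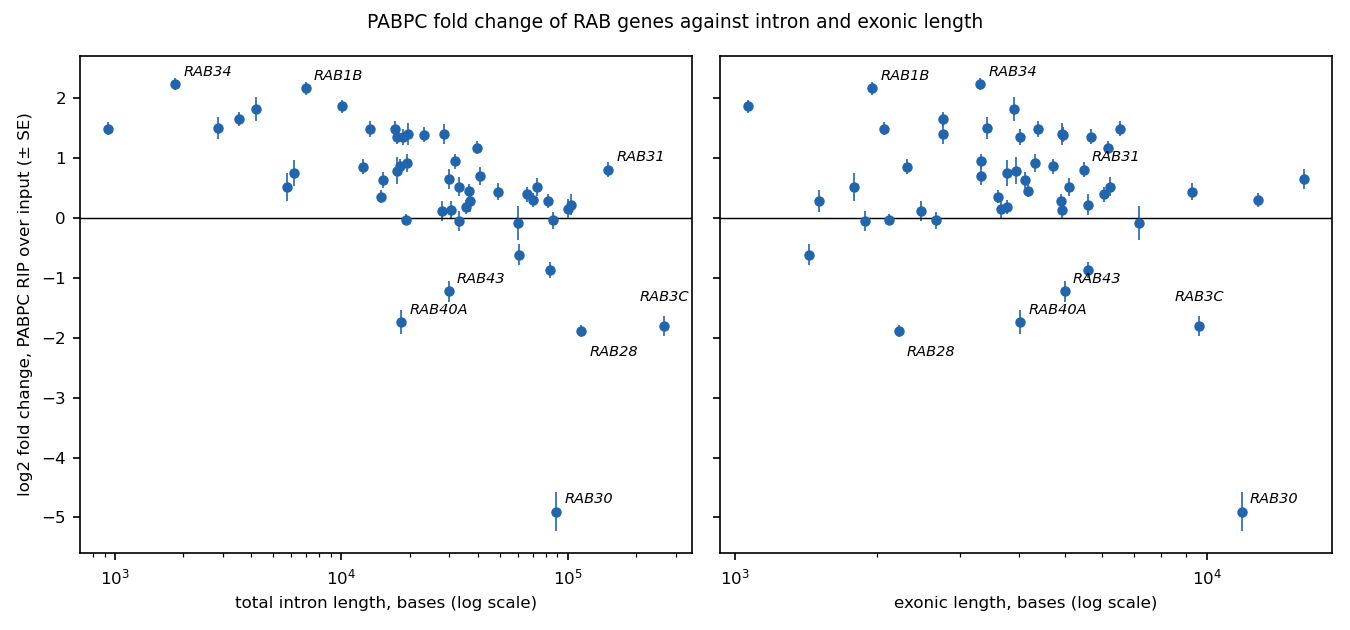
PABPC RIP log2 fold change with its SE for the 51 tested RAB genes against total intron length of the canonical transcript (left) and deposited exonic length (right), both in bases on a log scale. Members with under 10000 intron bases all lie at 0.52 or above, while RAB30, RAB28 and RAB3C lie to the right of the left panel between -4.90 and -1.81.

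The genes that load, switch and read RAB proteins were looked up in the same tables. Of 11 genes for escort, prenylation and membrane release, 8 were enriched with PABPC (72.7%, against 41.2% of protein coding genes) and 1 depleted (9.09%, against 27.9%), with a median of 1.01. RABAC1, a membrane receptor for RABs, had 2.18 ± 0.12 and ICMT, which methylates the prenylated C-terminus, 1.83 ± 0.12. GDI2, which extracts RABs from membranes, was enriched with PABPC at 0.64 ± 0.16 and depleted from PABPN at -0.95 ± 0.13. The escort protein gene CHM was the 1 depleted from PABPC (-1.31 ± 0.10).

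Among 55 tested exchange factor genes, 18 were enriched with PABPC (32.7%, against 41.2% of protein coding genes) and 21 depleted (38.2%, against 27.9%), around a median of -0.02. The lowest was TRAPPC9 (-3.12 ± 0.11) and the highest TRAPPC1 (2.16 ± 0.13), both subunits of the TRAPP complexes. TRAPPC1 and TRAPPC5 were also the lowest with PABPN (-1.21 ± 0.13 and -1.41 ± 0.16). Of 39 genes for GTPase activating proteins, 9 were enriched with PABPC (23.1%) and 22 depleted (56.4%), read against the same background, with a median of -0.68. Values ran from RABGAP1L at -2.97 ± 0.10 to TBC1D10B at 1.40 ± 0.10. SGSM2 had the highest PABPN value of that list (1.52 ± 0.11). Effectors were depleted from PABPC in 31 of 65 cases (47.7%, against 27.9%) and enriched in 13 (20%, against 41.2%), with a median of -0.42. VPS13B was lowest (-2.98 ± 0.10) and RILP, which links RAB7 to dynein, highest (2.0 ± 0.24). With PABPN, KIF20A, a kinesin that binds RAB6, was lowest at -1.44 ± 0.15 and the RAB11 partner RAB11FIP3 highest at 0.86 ± 0.11. Most genes in these 3 lists had no PABPN call, 43 of 55, 33 of 39 and 52 of 65. The same held for 8752 of 12800 protein coding genes, so nothing particular to these lists is read from it.

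The ARF and ARL family and the RAS family also held more PABPC-enriched than PABPC-depleted genes. In the ARF and ARL family, which act in coat recruitment, 18 of 26 were enriched (69.2%, against 41.2% of protein coding genes) and 4 depleted (15.4%, against 27.9%), with a median of 1.07. In the RAS family 14 of 22 were enriched (63.6%) and 4 depleted (18.2%), with a median of 1.09. With PABPN, 8 of 27 ARF and ARL genes were depleted and 5 enriched, and 1 of 22 RAS family genes was depleted and 2 enriched, where 16.5% of protein coding genes were depleted and 15.1% enriched. Differences between the families were not tested.

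Some members share sequence with other annotated genes. The share of 75-base stretches of the canonical transcript that also occur in genes elsewhere in the genome was above 10% for 4 of the 51 tested members, whose values are uncertain because reads could fit either copy. These were RAB43 (38.1%), RAB13 (24.6%), RAB40A (17.9%, with RAB40AL) and RAB6A (10.2%, with RAB6C and RAB6D). At their own locus RAB4B, RAB43, RAB13, RAB24 and RAB5C overlap readthrough or neighbouring genes. Per the study's methods, readthrough transcripts and stretches covered by several genes were left out of the annotation used for counting, so such overlap bears on how much of a gene was counted. No values are given here for overlap of members with antisense genes, and whether strand was used in counting is not given in the sources used here.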

How the data were processed

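RNA from 3 input, 3 PABPN RIP and 3 PABPC RIP libraries was aligned by the authors to hg38 with STAR, assigned to genes of an annotation derived from GENCODE 34 with featureCounts 2.0.2, and compared in DESeq2. The 2 tables they deposited hold 1 comparison with input each. The signal column deposited by the authors (baseMean) is the mean of size-factor normalised read counts over 6 libraries. The log2 columns deposited give RIP against input as a fold change, with the SE. The deposited p-value columns hold the Wald p and its Benjamini-Hochberg adjusted value. These comparison columns are the authors' own fits. They are the only measurements in the tables, so they were used as deposited, and no count model could be refitted.

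Calls used the study's cut-offs (log2 fold change beyond 0.5, adjusted p of at most 0.01, baseMean above 50). Group means were solved from baseMean and fold change, and the PABPC table was moved by the log2 offset of its input means, 0.23 (SD 0.00229 over 14581 genes). The error of the difference between RIPs combined both SEs as independent. The test of the difference was tried on simulated fold changes with the real errors. Their noise was drawn as independent, while the real comparisons share input. Depth was estimated from the lowest baseMean values. Lengths, signals and shared stretches came from GENCODE 44. Members and gene lists were chosen with earlier results of these data known. The site groups place each member at 1 site and were chosen rather than taken from the data. Counts per site depend on that choice. Genes named singly are the 4 highest and 4 lowest of each comparison and of the difference, the 4 highest in input, members called in both comparisons (at most 6 of the same and 6 of opposite direction), relatives of 1 number, and the 2 highest and lowest regulators per list and comparison. One regulator and one gene list that these rules would name are not reported here. Members outside these were named to account for every call over input. Python 3.11.15, numpy 2.4.6, scipy 1.17.1, pandas 2.3.3 and matplotlib 3.10.9 were used.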

Additional observations from a re-analysis of the deposited data

How the results depend on the processing

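A log2 threshold of 1 in place of 0.5 left 15 of 27 RAB genes enriched with PABPC, 2 of 6 enriched with PABPN, 1 of 11 depleted from PABPN, 5 of 8 higher with PABPN and 18 of 28 higher with PABPC in the difference. A test that the change itself exceeds 0.5 left 3 enriched with and 2 depleted from PABPN. With PABPC that test left 19 of 27 enriched and 6 of 7 depleted. The PABPC median of 0.53 became 0.27 when centred on protein coding genes, and 7 PABPC calls were lost (RAB1A, RAB4B, RAB8B, RAB9B, RAB18, RAB21 and RAB36). In place of exonic length, the genomic span of the gene changed the rank correlation from -0.15 to -0.60 with PABPC and from 0.10 to -0.22 with PABPN, which is a reversal; span includes introns, and the cause was not tested. Centring on all genes removed the PABPN call of RAB7A and added RAB40A. A minimum of 200 left 4 called genes untested with PABPC (RAB30, RAB40A, RAB4B and RAB9B), 2 with PABPN (RAB3A and RAB9B) and 4 in the difference (RAB30, RAB39B, RAB3A and RAB40A). With the variance of the shared input taken out, all 36 calls of the difference were kept and 0 were added. That change only shrinks the error, so it could lose no call and is no check on those kept. All 51 calls over input were kept with adjusted p recomputed. No paired analysis was possible because values per library were not analysed here, and for the same reason leaving out each replicate was not run. RAB27B, the tested member with the lowest means, had SEs of 0.26 with PABPN and 0.28 with PABPC. The largest SEs among tested members were 0.27 for RAB3A with PABPN and 0.32 for RAB30 with PABPC.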
